A study of Mus musculus with 3 samples.

Results

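The 9 genes described here carry iron and heme through immune cells, and they were read in single-cell RNA libraries of CD45+ cells from the infrarenal aorta of wild-type mice. The members were chosen by symbol: Hmox1, Blvrb, Slc48a1 and Hp for heme and haemoglobin, Fth1 and Ftl1 for iron storage, and Slc40a1, Slc11a1 and Tfrc for transport. All 9 were found, once each, among 32285 genes. Their levels were taken as UMIs, which are counts of captured RNA molecules, over barcodes with at least 200 genes and at most 10% mitochondrial UMIs.

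There were 3 libraries and 1 library per group. AAA_14 came from aortas induced with elastase, an enzyme that breaks down elastic fibres and is used to make abdominal aortic aneurysms. The library titled AAA_7 is named as an aneurysm library, but its treatment label gives PBS, so its treatment is in doubt wherever it is named below. Sham came from aortas given PBS. The labels do not say what the 14 and the 7 count. Aortas were pooled within a group (20 for the aneurysm group and 50 for the control group, with no number for AAA_7 by itself), perfused, digested with enzymes and enriched on CD45 and viability beads. With 1 pooled library per group there is no spread between animals. No test between conditions was possible, and each 95% interval below covers counting error only.

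Iron enters most cells as transferrin bound to the transferrin receptor, and macrophages also take it from the heme of engulfed red cells. Heme oxygenase opens the heme ring and frees the iron, ferritin cages store it, and ferroportin, the known iron exporter of mammalian cells, lets it out. Macrophages of spleen and liver are the textbook site of this recycling. The messages of ferritin, ferroportin and the transferrin receptor carry iron-responsive elements, short hairpins bound by iron regulatory proteins when iron is low, which block translation from a 5′ UTR and protect the message from a 3′ UTR.

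These hairpins are shown because they link 4 of the 9 members through a control that acts mainly on translation or on message stability, while the libraries count messages. They were found in GENCODE vM21 transcripts (GRCm38) as a C, 5 bases, CAGTGN and 5 bases pairing with the first 5 (G with T allowed), searched on the transcript's strand. The capitals mark the bulged C and the CAGTGN loop. The 5′ UTR sites lie at chr19:9982732-9982761 on the plus strand (Fth1), chr7:45459778-45459807 on the minus strand (Ftl1) and chr1:45925464-45925493 on the minus strand (Slc40a1). The Tfrc sites lie on the plus strand of chromosome 16, in the 3′ UTR, at chr16:32631219-32631248, chr16:32631598-32631627, chr16:32631663-32631692 and chr16:32631710-32631739.
Fth1: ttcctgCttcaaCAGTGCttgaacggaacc
Ftl1: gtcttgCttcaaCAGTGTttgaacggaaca
Slc40a1: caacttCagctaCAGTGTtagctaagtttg
Tfrc site at 32631219: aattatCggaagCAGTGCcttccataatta
Tfrc site at 32631598: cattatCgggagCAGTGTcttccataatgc
Tfrc site at 32631663: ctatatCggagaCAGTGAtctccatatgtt
Tfrc site at 32631710: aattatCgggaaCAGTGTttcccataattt
These letters were present in the 5′ UTR of 31 of 21877 coding genes (0.142%) and in the 3′ UTR of 129 (0.59%). No match was found in the UTRs of the other 5 members.

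After filters and removal of likely doublets, 5062 AAA_14 cells, 3146 AAA_7 cells and 1223 Sham cells were kept. The libraries differ in ways that bear on every comparison: the median cell of AAA_14 held 6740.5 UMIs, that of AAA_7 2533 and that of Sham 3640, and the mitochondrial limit and gene minimum removed 47.7%, 7.64% and 67.4% of barcodes. At most 8 kept barcodes were shared by any pair of libraries. Clusters were named from marker genes, and every class name below stands for cells that resemble that class. Macrophage-like and monocyte-like clusters together form the phagocytes, with 1137 cells in AAA_14, 994 in AAA_7 and 14 in Sham. Neutrophils numbered 592, 670 and 55, dendritic cells 434, 214 and 40, T cells 929, 558 and 439, B cells 1256, 455 and 419, and NK cells 101, 171 and 86, in the same order of libraries. A cluster led by Camp, Ngp and Ltf, genes of neutrophil granules, was left unnamed and held 208, 21 and 57 cells. Its 11 neutrophil markers summed to 356784, 318089 and 391663 CPM, above the 164078, 95697 and 220301 CPM of the named neutrophils. The neutrophil class therefore leaves out these neutrophil-like cells. Classes were compared between libraries where each had at least 50 cells, so phagocytes and dendritic cells have no Sham side. The labelled CD45+ identity is not complete, since small clusters of erythroid cells (43, 0 and 3) and of endothelial cells (23, 8 and 0) were also present.

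A difference between libraries is given as a log2 ratio of CPM, a gene's UMIs scaled to 1000000 UMIs of the class, with 0.5 UMIs added and an exact 95% interval for counting. A member is called higher or lower where the ratio is at least 2-fold and the interval leaves out 0. Over the 6 named classes, 5 of the 30 member and class pairs with enough UMIs were called between AAA_14 and Sham, beside 17.3% of all gene and class pairs. Between AAA_7 and Sham 10 of 27 were called, beside 20.0%, and between AAA_14 and AAA_7 13 of 48 were called, beside 9.54%. Of these calls, 1 for AAA_14 over Sham and 3 for AAA_7 over Sham rest on 0 UMIs in Sham. The members' share is thus near the background for AAA_14 against Sham and above it for both comparisons with AAA_7. The pairs are not independent, since the same gene can be called in several classes. For AAA_14 over AAA_7 Hmox1 was called in neutrophils, dendritic cells, T cells and B cells. Hp was called there in phagocytes, neutrophils, dendritic cells and B cells. For AAA_7 over Sham Hmox1 was called in neutrophils, T cells and B cells.

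**Figure D1:**
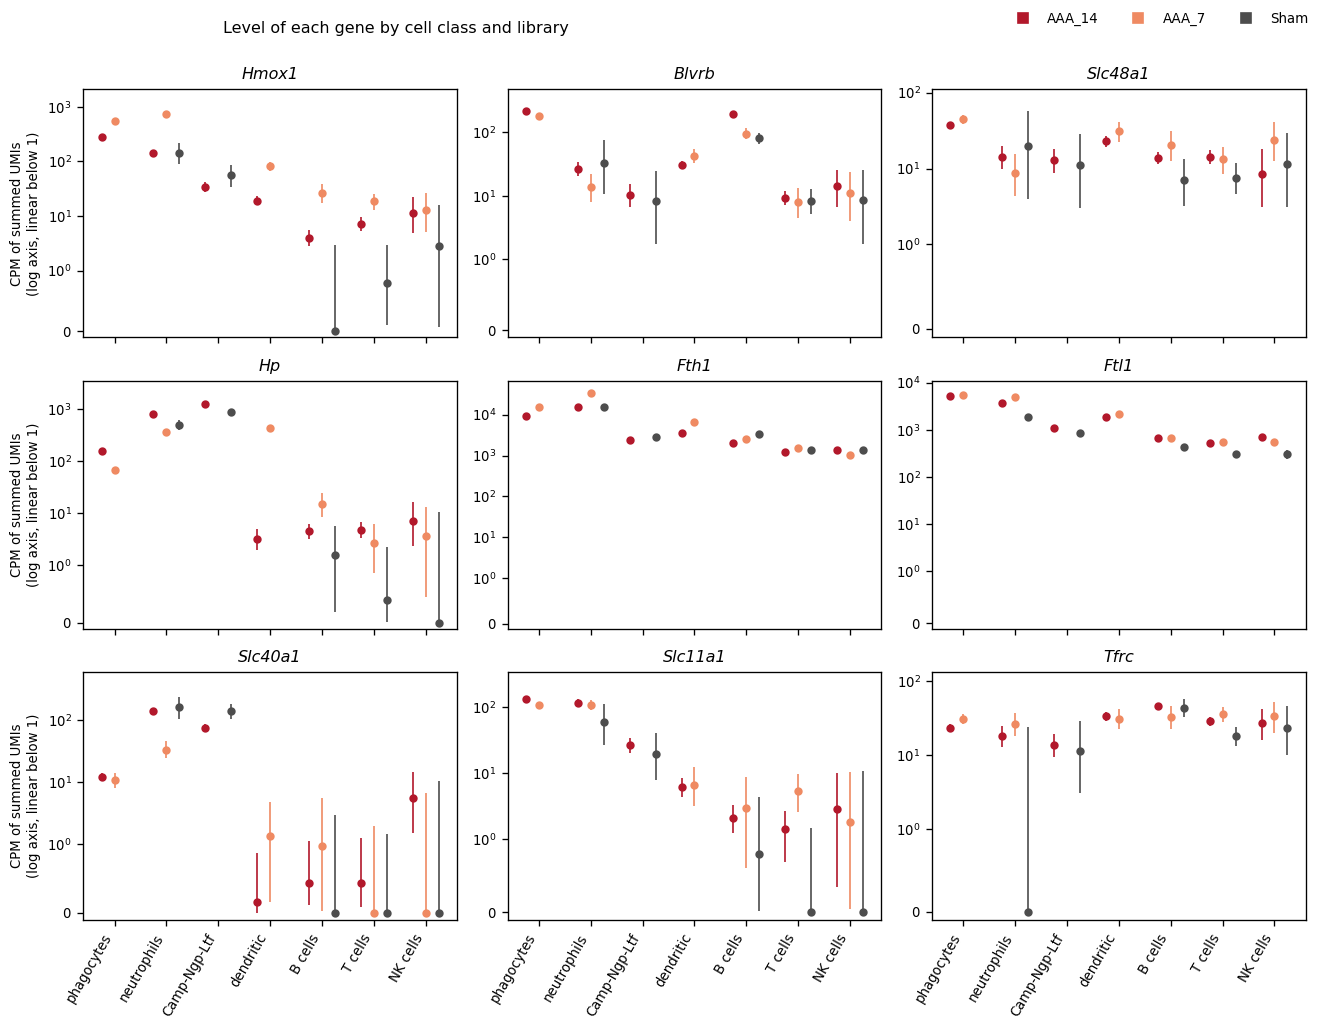
CPM (log axis, linear below 1) of each gene by cell class; points are summed UMIs of AAA_14, AAA_7 and Sham and bars are exact 95% Poisson intervals. Classes with under 50 cells in a library are not drawn. Hmox1 and Fth1 stood highest in AAA_7 neutrophils, and Slc40a1 stood highest in neutrophils and the Camp-Ngp-Ltf cluster of AAA_14 and Sham.

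Hmox1 (chromosome 8, 75093621 to 75100589, plus strand, GRCm38) encodes heme oxygenase 1, the inducible enzyme that degrades heme. It totalled 4366 UMIs in AAA_14, against 4207 in AAA_7 and 80 in Sham, where only 14 phagocytes were kept. Scaled to all UMIs of the library, this was 91.5, 337 and 13.5 CPM. Phagocytes held 82.0% of the Hmox1 UMIs in AAA_14 and 70.6% in AAA_7. In phagocytes its level was 286 CPM in AAA_14 (3580 UMIs) and 540 CPM in AAA_7 (2972 UMIs). The log2 ratio of AAA_14 over AAA_7 was -0.92 (-0.99 to -0.85), beside a median of 0.11 over all genes, and so did not reach 2-fold. In Sham 32 UMIs lay in 14 phagocytes, and 75.0% of them were in 1 cell.

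Hmox1 was unevenly spread over the phagocyte clusters. The cluster led by Retnla, Cd209f, Cd163 and Lyve1 (cluster 20; Cd163 is the haemoglobin-haptoglobin receptor) had 852 CPM in AAA_14, and 310 UMIs were found in its 37 AAA_7 cells. The cluster led by Ccl8, Ccl7 and Mrc1 (cluster 4) had 410 CPM in AAA_14 and 924 CPM in AAA_7. Within AAA_14, cluster 20 was above cluster 4 by a log2 ratio of 1.06 (0.93 to 1.18). The other clusters were lower. The cluster led by Fn1, Thbs1 and Spp1 (cluster 5) had 234 CPM in AAA_14 and 387 CPM in AAA_7, that led by Ms4a7, Slamf9 and Cx3cr1 (cluster 8) 87.8 and 277 CPM, and that led by Ear2 and Ace (cluster 14) 145 CPM in AAA_14. Between the libraries, AAA_14 was lower than AAA_7 in clusters 4 (-1.17, -1.28 to -1.07) and 8 (-1.66, -1.90 to -1.42), where 7.15% and 7.09% of all genes were called in either direction. In cluster 5 the ratio was -0.72, short of 2-fold.

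In neutrophils the Hmox1 level was 142 CPM in AAA_14 (320 UMIs), 740 CPM in AAA_7 (929 UMIs) and 143 CPM in Sham (22 UMIs). AAA_7 thus stood apart from the other libraries, whose intervals overlap (127 to 159 CPM in AAA_14 and 89.8 to 217 CPM in Sham). Over Sham, the log2 ratio was -0.04 (-0.64 to 0.68) in AAA_14 and 2.34 (1.76 to 3.05) in AAA_7. It was -2.38 (-2.57 to -2.20) for AAA_14 over AAA_7. The share of neutrophils with an Hmox1 UMI was nevertheless alike, at 31.2% in AAA_14, 30% in AAA_7 and 29.1% in Sham, at median depths of 3374, 1692 and 2258 UMIs. After thinning every cell to 1000 UMIs it was 12.99%, 22.1% and 14.8%, against 0.243%, 3.70% and 0% in B cells.

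The AAA_7 level was concentrated in few neutrophils. In AAA_7, the 18 of 670 neutrophils with the most Hmox1 held 472 of the 929 Hmox1 UMIs, at 11293 CPM, while the other 652 had 377 CPM. In AAA_14, 46 of 592 neutrophils held 160 UMIs and the other 546 had 77.0 CPM. In Sham, 5 of 55 held 11 UMIs and the other 50 had 76.6 CPM. The 18 AAA_7 cells had 742 CPM of 11 summed macrophage markers and 125822 CPM of 11 neutrophil markers, against 1233 and 94660 CPM in the other AAA_7 neutrophils. In neutrophils with no macrophage-marker UMI at all, Hmox1 was 186 CPM in AAA_14, 709 CPM in AAA_7 and 164 CPM in Sham.

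The neutrophils of the libraries belonged to different clusters. The cluster led by Acod1, Csf1 and Slc7a11 (cluster 1) held 185 AAA_14 cells, 652 AAA_7 cells and 1 Sham cell, and the cluster led by Retnlg, Csf3r and Cxcr2 (cluster 6) held 407, 18 and 54. Within cluster 1 Hmox1 was 110 CPM in AAA_14 and 689 CPM in AAA_7, a log2 ratio of -2.64 (-3.00 to -2.31), where 16.2% of all genes were called. Within cluster 6 it was 157 CPM in AAA_14 and 145 CPM in Sham, a ratio of 0.08.

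**Figure D2:**
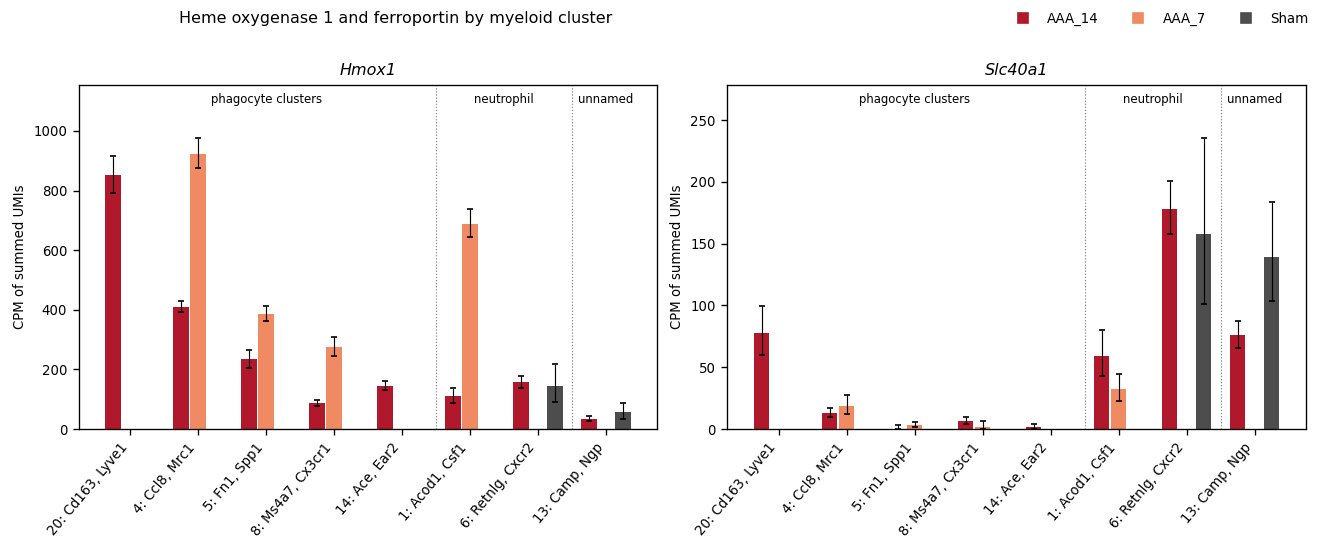
CPM of summed UMIs for heme oxygenase 1 (Hmox1, left) and ferroportin (Slc40a1, right) in clusters of phagocytes, neutrophils and the unnamed Camp-Ngp-Ltf cluster. Bars show AAA_14, AAA_7 and Sham with exact 95% Poisson intervals, and clusters with under 50 cells in a library have no bar. Hmox1 reached 924 CPM in AAA_7 cells of cluster 4 and 852 CPM in AAA_14 cells of cluster 20, while Slc40a1 reached 178 CPM in AAA_14 cells of cluster 6.

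In other classes Hmox1 was low. The Camp-Ngp-Ltf cluster had 34.0 CPM in AAA_14 and 55.6 CPM in Sham (-0.74, -1.43 to 0.07). T cells of AAA_14 gave 50 UMIs (7.22 CPM), those of AAA_7 35 (18.5 CPM) and those of Sham 2 (0.80 CPM). The log2 ratio was 2.87 (1.25 to 6.26) for AAA_14 over Sham and 4.23 (2.57 to 7.63) for AAA_7 over Sham. B cells had 36, 27 and 0 UMIs, at least 1.66-fold higher in AAA_14 and at least 11.1-fold higher in AAA_7 against a floor of 3 counts in the Sham library. The 11 macrophage markers summed to 202, 495 and 13.97 CPM in T cells of AAA_14, AAA_7 and Sham, and to 458, 610 and 175 CPM in B cells. Of the 11, 10, 11 and 5 were detected in T cells and 11, 11 and 4 in B cells, and C1qa, C1qb, C1qc and Mertk were at 0 in both Sham classes. The part of free RNA in these calls was not tested. In dendritic cells Hmox1 was 19.1 CPM in AAA_14 and 81.1 CPM in AAA_7 (-2.08, -2.46 to -1.71), but 40.5% of the AAA_7 UMIs were in 1 cell, and the ratio without the top cell was -1.46. With a mitochondrial limit of 5% it was -0.87. Hmox1 and Hp were the 2 of 8 members called in dendritic cells, both lower in AAA_14, where 10.1% of all genes were called; the members' median was -0.46 beside 0.14 over all genes.

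In T cells 2 of 8 were called for AAA_14 over Sham (Hmox1 and Hp, higher) and 2 of 7 for AAA_7 over Sham (Hmox1 and Slc11a1, higher), beside 23.7% and 26.0% of all genes. For AAA_14 over AAA_7 2 of 8 were called (Hmox1 at -1.36 and Slc11a1 at -1.87), beside 6.08%. Both calls ended with a 5% mitochondrial limit (-0.92 and -0.99) and with classes from each cell's own markers (-0.97 and -1.71; a call needs at least 10 UMIs and an interval without 0 as well as 2-fold), and that of Slc11a1 also after thinning (-0.79). In B cells 2 of 8 (Hmox1 and Blvrb), 3 of 7 (Hmox1, Slc48a1 and Hp) and 3 of 8 (Blvrb higher, Hmox1 and Hp lower) were called in these comparisons, beside 19.4%, 17.0% and 10.0%. In NK cells 1 of 5 (Ftl1), 0 of 4 and 1 of 6 (Slc48a1, lower) were called, beside 13.8%, 15.8% and 5.7%. In the Camp-Ngp-Ltf cluster 0 of 9 were called between AAA_14 and Sham, beside 7.46%.

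Slc40a1 (chromosome 1, 45908068 to 45926523, minus strand) encodes ferroportin. In AAA_14 and AAA_7 it stood highest in neutrophils, and in Sham neutrophils and the Camp-Ngp-Ltf cluster did not differ beyond counting error (0.24, -0.53 to 0.95). Neutrophils had 141 CPM in AAA_14 (317 UMIs), 33.5 CPM in AAA_7 (42 UMIs) and 163 CPM in Sham (25 UMIs). The Camp-Ngp-Ltf cluster had 75.9 CPM in AAA_14 (183 UMIs) and 139 CPM in Sham (50 UMIs), a log2 ratio of -0.88 (-1.33 to -0.39). That ratio was called lower with at least 500 genes (-1.01), with doublets kept (-1.0) and after thinning (-1.87). Together neutrophils and this cluster held most of the ferroportin UMIs of AAA_14 (46.7% and 27.0%) and of Sham (32.9% and 65.8%). Phagocytes had 12.1 CPM in AAA_14 and 10.7 CPM in AAA_7. The log2 ratio of AAA_14 over AAA_7 was 0.17 (-0.26 to 0.64), but after thinning to 1000 UMIs it was 2.76 and called. Neutrophils were above phagocytes of their own library by a log2 ratio of 3.53 (3.25 to 3.83) in AAA_14 and 1.65 (1.04 to 2.24) in AAA_7. In T and B cells there were between 0 and 4 UMIs in each library.

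Against Sham, neutrophil ferroportin differed by -0.24 (-0.80 to 0.44) in AAA_14 and was lower by a log2 ratio of -2.29 (-3.03 to -1.51) in AAA_7. For AAA_14 over AAA_7 the log2 ratio was 2.06 (1.61 to 2.57). AAA_7 was thus the low library, and the intervals of AAA_14 (126 to 157 CPM) and Sham (105 to 240 CPM) overlap. Part of this moved with the clusters: in AAA_14 ferroportin was 178 CPM in cluster 6, one of whose 10 leading genes it was, and 59.2 CPM in cluster 1. Within cluster 1 the level was 59.2 CPM in AAA_14 and 32.4 CPM in AAA_7, a ratio of 0.87 (0.21 to 1.54) that did not reach 2-fold. Within cluster 6 it was 178 CPM in AAA_14 and 158 CPM in Sham (0.15, -0.43 to 0.84). After thinning, 12.8% of neutrophils in AAA_14, 2.49% in AAA_7 and 16.7% in Sham had a ferroportin UMI (34.0%, 5.67% and 34.5% unthinned), and no B cell did.

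Among phagocytes, ferroportin was concentrated in cluster 20, which had 78.0 CPM in AAA_14 (65 UMIs in 92 cells) against 12.97 CPM in cluster 4 (2.59, 2.06 to 3.11). In AAA_7 23 of the 59 phagocyte UMIs were in the 37 cells of that cluster. In cluster 5, 84 AAA_14 cells had 0 UMIs and 536 AAA_7 cells had 8. The cluster rich in Hmox1 was therefore also the phagocyte cluster richest in the exporter.

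**Figure D3:**
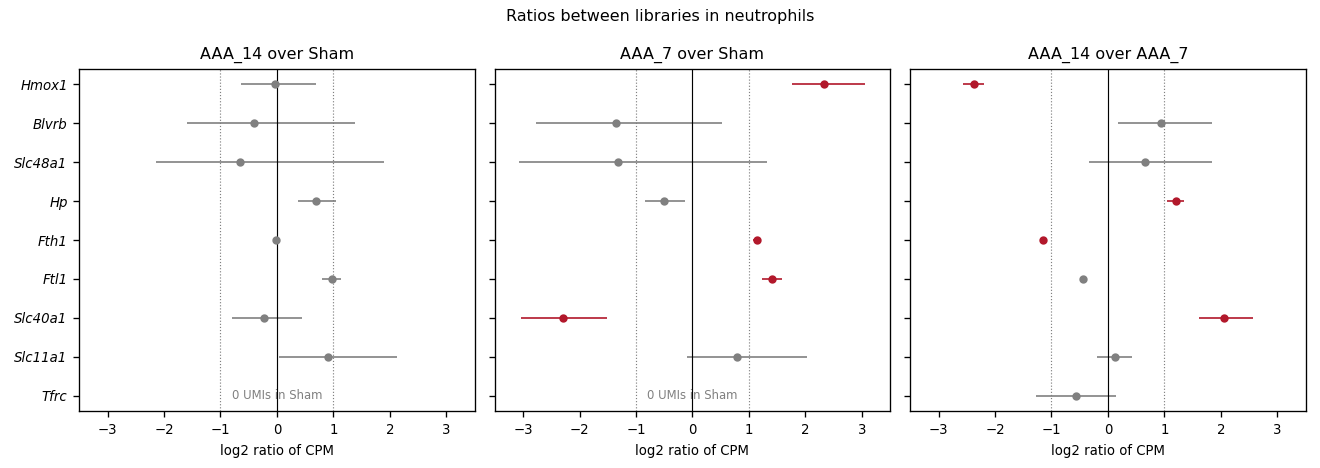
Log2 ratios of CPM in neutrophils for the 9 genes, in 3 comparisons, AAA_14 over Sham (left), AAA_7 over Sham (middle) and AAA_14 over AAA_7 (right). Bars are exact 95% counting intervals, dotted lines mark 2-fold, red points were called, and Tfrc has 0 UMIs in Sham. Hmox1 was at 2.34 and Slc40a1 at -2.29 for AAA_7 over Sham, while neither was called for AAA_14 over Sham.

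Taking all 9 members in neutrophils, none was called for AAA_14 over Sham, where 8.31% of all genes were called, and their median log2 ratio was -0.01 beside 0.05 over all genes (-0.04 with Tfrc at its bound). For AAA_7 over Sham 4 were higher (Hmox1, Fth1, Ftl1 and Tfrc) and Slc40a1 was lower, where 19.3% of all genes were called. The members' median was 0.79 beside 0.04 over all genes, and 0.43 with Tfrc at its bound. Tfrc counted 40 UMIs in AAA_14 neutrophils against 33 in those of AAA_7 and 0 in those of Sham, so that AAA_7 was at least 1.35-fold higher, which is under 2-fold. For AAA_14 over AAA_7 Hp and Slc40a1 were higher and Hmox1 and Fth1 were lower, where 18.1% of all genes were called, and the members' median was 0.12, as over all genes.

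Fth1 (chromosome 19, 9980598 to 9985098, plus strand) encodes the ferritin heavy chain, which oxidises iron for storage, and Ftl1 (chromosome 7, 45457944 to 45459884, minus strand) the light chain, which helps the mineral core to form. In neutrophils Fth1 was 15056 CPM in AAA_14, 33258 CPM in AAA_7 and 15139 CPM in Sham. AAA_14 and Sham were alike (-0.01, -0.07 to 0.05), while AAA_7 was higher than Sham (1.14, 1.08 to 1.20), and AAA_14 was lower than AAA_7 (-1.14, -1.16 to -1.12). By cluster the differences were under 2-fold: in cluster 1 Fth1 was 22295 CPM in AAA_14 and 33899 CPM in AAA_7 (-0.60), and in cluster 6 it was 11729 CPM in AAA_14 and 15193 CPM in Sham (-0.37). Both chains together were 1.88% of UMIs in AAA_14 neutrophils, 3.83% in AAA_7 and 1.70% in Sham.

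Ftl1 in neutrophils was 3698 CPM in AAA_14, 5013 CPM in AAA_7 and 1889 CPM in Sham. The light chain was therefore lowest in Sham, with a log2 ratio of 0.97 (0.80 to 1.14) for AAA_14, just under 2-fold (1.19 with TMM factors), and of 1.41 (1.24 to 1.58) for AAA_7. In phagocytes Fth1 was 9118 CPM in AAA_14 and 15084 CPM in AAA_7 (-0.73), and Ftl1 5191 and 5572 CPM (-0.10). By phagocyte cluster the Fth1 ratio was -0.15 in cluster 4, -0.64 in cluster 5 and -0.04 in cluster 8. Cluster 5 held 84 of the 1137 AAA_14 phagocytes and 536 of the 994 AAA_7 phagocytes. In dendritic cells Fth1 was 3486 CPM in AAA_14 and 6675 CPM in AAA_7 (-0.94). Within the dendritic cluster led by Cd209a it passed 2-fold, at 4091 CPM in AAA_14 and 8831 CPM in AAA_7 (-1.11, -1.16 to -1.06), where 11.7% of all genes were called.

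Lymphocytes carried much less ferritin, and in B cells the chains differed from Sham in opposite senses. In B cells Fth1 was 2033 CPM in AAA_14, 2502 CPM in AAA_7 and 3405 CPM in Sham (-0.74 and -0.44 over Sham). Ftl1 in B cells was 669 CPM in AAA_14, 654 CPM in AAA_7 and 439 CPM in Sham (0.61 and 0.58). In T cells Fth1 was 1216, 1497 and 1373 CPM and Ftl1 518, 550 and 310 CPM in AAA_14, AAA_7 and Sham (0.74 and 0.83 for Ftl1 over Sham). In NK cells Fth1 was 1364, 1004 and 1330 CPM and Ftl1 689, 539 and 299 CPM. There the Ftl1 ratio of AAA_14 over Sham reached 2-fold (1.20, 0.90 to 1.53), but not with TMM factors (0.97) or after thinning (0.64). For AAA_7 over Sham it was 0.85, and 1.11 with doublets kept. Over all genes, the median ratio of AAA_14 over Sham was 0.29 in B cells, 0.48 in T cells and 0.30 in NK cells, and that of AAA_7 over Sham 0.24, 0.47 and 0.29.

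The number of heavy-chain UMIs per light-chain UMI sums up both movements. It was 4.07 in AAA_14 neutrophils, 6.63 in AAA_7 neutrophils and 8.01 in Sham neutrophils (95% intervals 3.98 to 4.17, 6.46 to 6.81 and 7.09 to 9.09). In B cells it was 3.04, 3.83 and 7.76, in T cells 2.35, 2.72 and 4.43, and in NK cells 1.98, 1.86 and 4.45, in AAA_14, AAA_7 and Sham. In the Camp-Ngp-Ltf cluster it was 2.19 in AAA_14 and 3.22 in Sham. Sham had the highest ratio in each of these classes, with an interval that did not overlap those of the other libraries. Each UMI is a 3′ tag of 1 molecule, so gene length does not enter, but the capture of each message is not known. Reads of Ftl1 can also fall on its pseudogene Ftl1-ps1, which was given 104 UMIs in neutrophils of AAA_14, 54 in those of AAA_7 and 1 in those of Sham.

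Phagocytes had 1.76 heavy-chain UMIs per light-chain UMI in AAA_14 and 2.71 in AAA_7, and dendritic cells 1.85 and 3.16. By phagocyte cluster the ratio was 1.44 in AAA_14 and 1.79 in AAA_7 (cluster 4), 2.14 and 3.44 (cluster 5) and 2.36 and 2.24 (cluster 8). Within AAA_14 the ratio ran from 6.68 in the plasmacytoid dendritic cluster led by Siglech, through 1.10 in the Xcr1 dendritic cluster, to 0.589 in plasma cells. Plasma cells (188 in AAA_14) had more light-chain than heavy-chain UMIs, 5437 against 3205, and the 43 erythroid cells of AAA_14 had 303 against 285.

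**Figure D4:**
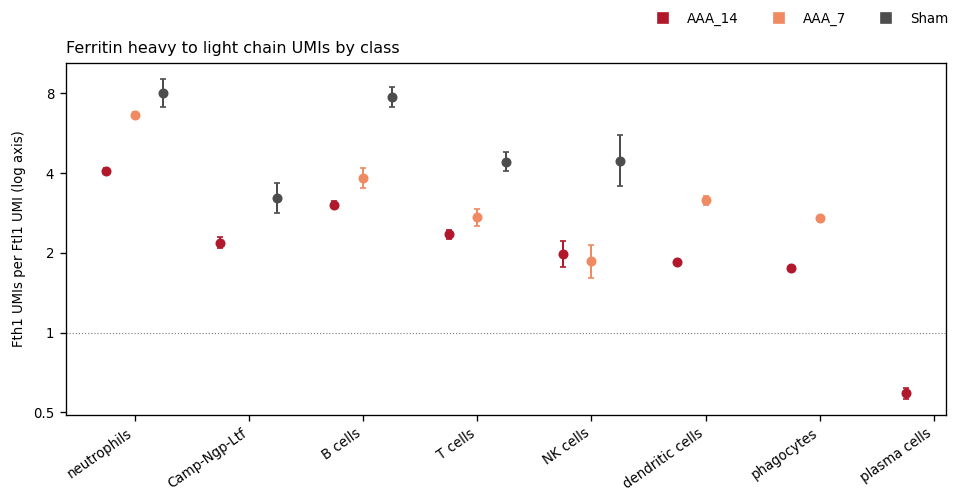
Fth1 UMIs per Ftl1 UMI (log axis) by cell class in AAA_14, AAA_7 and Sham, with exact 95% counting intervals; the dotted line marks equal numbers. Sham lay highest in neutrophils (8.01), B cells (7.76), T cells (4.43) and NK cells (4.45), and AAA_14 plasma cells lay below 1 (0.589).

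Blvrb (chromosome 7, 27447978 to 27466144, plus strand) encodes biliverdin reductase B, an NADPH-dependent flavin and biliverdin reductase abundant in red cells. In phagocytes it was 212 CPM in AAA_14 and 177 CPM in AAA_7 (0.26). By cluster it followed Hmox1 in AAA_14 at the top, with 438 CPM in cluster 20 and 297 CPM in cluster 4. In cluster 5 it was 276 CPM in AAA_14 and 106 CPM in AAA_7 (1.38, 1.13 to 1.62), where 11.2% of all genes were called. Neutrophils had at most 32.6 CPM.

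B cells were the other source of Blvrb, with 192 CPM in AAA_14 (1750 UMIs), 94.8 CPM in AAA_7 (97 UMIs) and 80.8 CPM in Sham (102 UMIs). B cells were above T cells of the same library by log2 ratios of 4.36 in AAA_14, 3.54 in AAA_7 and 3.24 in Sham. The ratio over Sham was 1.24 (0.96 to 1.55) in AAA_14 and 0.23 (-0.18 to 0.65) in AAA_7, and that of AAA_14 over AAA_7 was 1.01 (0.72 to 1.33). A cluster led by Rgs13, Mef2b and Mki67, genes active in germinal-centre B cells (197 cells in AAA_14, 10 in AAA_7 and 7 in Sham), held 1163 of the 1750 AAA_14 UMIs, at 304 CPM. Over the other 3 B-cell clusters Blvrb was 111 CPM in AAA_14, 81.7 CPM in AAA_7 and 86.1 CPM in Sham. The ratio for AAA_14 over Sham was then 0.36 (0.06 to 0.68), so the 2-fold difference is found with that cluster and not without it. For AAA_14 over AAA_7 it was 0.43 (0.09 to 0.80). The call for AAA_14 over AAA_7 also ended after thinning (0.34), with at least 500 genes (0.41) and with a 20% mitochondrial limit (0.69). It ended too with doublets kept (0.99), with 5 UMIs added (0.95) and without cells with a haemoglobin UMI (0.67).

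Haemoglobin RNA also differed between B cells of the libraries, at 1801 CPM in AAA_14, 13.7 CPM in AAA_7 and 2371 CPM in Sham. It lay in 577, 10 and 54 B cells, and the top cell held 37.1%, 21.4% and 52.6% of it. Blvrb in B cells without a haemoglobin UMI was 147 CPM in AAA_14 (679 cells), 91.6 CPM in AAA_7 (445 cells) and 76.8 CPM in Sham (365 cells), a ratio of 0.92 for AAA_14 over Sham, which is under 2-fold.

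Slc48a1 (chromosome 15, 97778520 to 97792692, plus strand) encodes HRG1, a transporter that moves heme out of the lysosome. Its UMIs were few: 37.8 CPM in AAA_14 phagocytes and 44.3 CPM in AAA_7 phagocytes (-0.23, -0.45 to 0.00), 22.9 and 30.8 CPM in dendritic cells, and 49.6 CPM in the AAA_14 plasmacytoid cluster. In neutrophils, lymphocytes and plasma cells, where at least 50 cells were kept, it lay between 7.13 and 23.9 CPM. The 43 erythroid cells of AAA_14 held 30 UMIs. Within AAA_14, phagocytes were above dendritic cells by 0.72 (0.45 to 1.00), and dendritic cells above T cells by 0.68 (0.30 to 1.06). Its calls rest on few UMIs: in B cells 21 in AAA_7 against 9 in Sham (1.48, 0.34 to 2.84), and in NK cells 6 in AAA_14 against 13 in AAA_7 (-1.44, -3.18 to -0.0037). The 3′ end of Slc48a1 overlaps Hdac7, a gene on the opposite strand, and whether counting used strand is not given in the sources used here.

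Hp (chromosome 8, 109575128 to 109579172, minus strand) encodes haptoglobin, which binds free haemoglobin and is stored in neutrophil granules. The Camp-Ngp-Ltf cluster had the highest level, 1252 CPM in AAA_14 (3017 UMIs) and 865 CPM in Sham (311 UMIs), a log2 ratio of 0.53 (0.36 to 0.71). In neutrophils it was 817 CPM in AAA_14 (1840 UMIs), 355 CPM in AAA_7 (446 UMIs) and 502 CPM in Sham (77 UMIs). AAA_7 was the lowest and AAA_14 the highest: the ratio over Sham was 0.70 in AAA_14 and -0.51 in AAA_7, and that of AAA_14 over AAA_7 was 1.20 (1.05 to 1.35). Within cluster 1, which held 652 of the 670 AAA_7 neutrophils, the direction turned, at 231 CPM in AAA_14 and 337 CPM in AAA_7 (-0.54, -0.81 to -0.28). Within cluster 6, Hp was 1087 CPM in AAA_14 and 508 CPM in Sham (1.09, 0.77 to 1.45), where 9.71% of all genes were called.

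In phagocytes Hp was the only member called, at 159 CPM in AAA_14 and 67.4 CPM in AAA_7 (1.24, 1.08 to 1.40), where 8.47% of all genes were called; the members' median was -0.10 beside 0.11 over all genes. Of the 1992 AAA_14 UMIs, 1592 were in cluster 14, led by Ear2, Ace, Plac8 and Ly6i, at 597 CPM. That cluster held 247 AAA_14 cells and 22 AAA_7 cells. Cluster 5 held 305 of the 371 AAA_7 UMIs. There Hp was also called higher, at 288 CPM in AAA_14 and 117 CPM in AAA_7 (1.31, 1.07 to 1.54), where 11.2% of all genes were called. The clusters richest in Hmox1 had little haptoglobin: cluster 4 had 5.44 CPM in AAA_14 and 13.6 CPM in AAA_7. In cluster 4 the call went the other way (-1.33, -2.23 to -0.39), where 7.15% of all genes were called. The call in phagocytes ended with a mitochondrial limit of 5% (-0.08), of 20% (0.78) or with classes set from each cell's own markers (0.87).

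Dendritic cells gave the largest ratio, 3.13 CPM in AAA_14 (20 UMIs) against 428 CPM in AAA_7 (638 UMIs), but this rests on a few cells. In AAA_7, 6 cells of the Fscn1 and Ccl22 cluster held 629 of the 638 UMIs, 1 of them 54.4%. These 6 cells had 6046 CPM of Hp and 6450 CPM of neutrophil markers. The other 208 dendritic cells had 6.48 CPM of Hp and 1885 CPM of these markers. Neutrophils of AAA_7 had less Hp, 355 CPM, at 95697 CPM of the markers. The source of the Hp in the 6 cells was not tested. In AAA_14 the dendritic cells outside the 6 with most Hp had 1.28 CPM of Hp and 240 CPM of neutrophil markers. T cells held 33 Hp UMIs in AAA_14, 33.3% of them in 1 cell, against 5 in AAA_7 T cells and 1 in Sham T cells (3.01, 1.00 to 8.92, for AAA_14 over Sham). The 11 neutrophil markers in T cells summed to 620 CPM in AAA_14, 364 CPM in AAA_7 and 130 CPM in Sham (11, 10 and 11 detected), and their part in this difference was not tested.

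Slc11a1 (chromosome 1, 74375195 to 74386062, plus strand) encodes NRAMP1, which pumps iron and other divalent metals out of the phagosome. Phagocytes held 78.2% of its UMIs in AAA_14 and 78.3% in AAA_7, at 134 and 109 CPM. Neutrophils had 116 CPM in AAA_14 (261 UMIs), 107 CPM in AAA_7 (134 UMIs) and 58.6 CPM in Sham (9 UMIs), with log2 ratios over Sham of 0.91 (0.04 to 2.13) and 0.79 (-0.10 to 2.02). Neither reached 2-fold, but both were called with TMM factors (1.13 in AAA_14 and 1.06 in AAA_7), with classes from each cell's own markers (1.09 and 1.60) and without the top cell of each class (1.22 and 1.07). Neutrophils and phagocytes of AAA_7 did not differ beyond counting error (-0.03, -0.32 to 0.24). The Camp-Ngp-Ltf cluster was lower, at 26.6 CPM in AAA_14 and 19.5 CPM in Sham. In T cells 10 UMIs in AAA_7 stood against 0 in Sham, at least 4.41-fold higher, beside the macrophage markers given above. A call needs at least 10 UMIs, so this one sat at the minimum. It ended after thinning and with classes from each cell's own markers. It also ended without the top cell and without cells that had at least 1% neutrophil-marker UMIs.

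Tfrc (chromosome 16, 32608920 to 32632794, plus strand) encodes transferrin receptor 1 and was the member with the flattest profile. Its library level was 27.0 CPM in AAA_14, 30.6 CPM in AAA_7 and 29.1 CPM in Sham. B cells had 46.3, 32.3 and 43.6 CPM, T cells 28.6, 35.3 and 18.0 CPM, and phagocytes 23.2 CPM in AAA_14 and 30.9 CPM in AAA_7. In AAA_7 no neighbouring classes in the order of levels differed beyond counting error. No class ratio for Tfrc was called except that against 0 UMIs in Sham neutrophils.

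By cluster, Tfrc was far from flat. Within AAA_14 the plasmacytoid dendritic cluster had 193 CPM (117 UMIs in 57 cells), above the Cd209a dendritic cluster by a log2 ratio of 3.32 (2.83 to 3.86). The same cluster had 24 UMIs in 25 AAA_7 cells and 24 in 16 Sham cells. The germinal-centre B-cell cluster held 296 of the 422 B-cell UMIs of AAA_14, at 77.4 CPM, above the B-cell cluster with the most AAA_14 cells by 1.74 (1.40 to 2.12) and above the B-cell cluster next in level by 0.87 (0.25 to 1.64). Phagocyte cluster 20, rich in Hmox1 and ferroportin, had 103 CPM in AAA_14 (86 UMIs), above cluster 4 by 1.83 (1.42 to 2.23). Cluster 5 had 3.84 CPM in AAA_14 (4 UMIs) and 36.3 CPM in AAA_7 (95 UMIs), a ratio of -3.08 (-5.15 to -1.84).

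Genes whose levels ran most like those of the members were found by Pearson's r of log2(CPM + 1) over 20 class and library sums, among 5441 genes. The sums share libraries and depth, so r is a description. For Hmox1 the closest were Cd14, a co-receptor for lipopolysaccharide (0.95), Ier3 (0.95) and Fcgr4, an IgG receptor (0.94). Slc40a1 ran with Mmp9 (0.98), Trem3 (0.97) and Mmp8 (0.96), of which Mmp9 and Mmp8 are neutrophil proteases, and Hp with Lrg1 (0.97), Mgst1 (0.96) and Wfdc21 (0.94). Slc11a1 ran with Fcgr4 (0.97), Klra2 (0.97) and Pla2g7 (0.96). For Fth1 they were Tpd52 (0.95), Gabarap (0.94) and Marcksl1 (0.93), and for Ftl1 Ifi204 (0.95), Atp6ap2 (0.94) and Lrrc25 (0.94). Tfrc ran with Cacul1 (0.94), Tardbp (0.94) and Eri1 (0.93). The weakest matches were those of Blvrb, with Smagp (0.90), Ly86 (0.89) and Cd83 (0.86), and of Slc48a1, with Adap2 (0.81), Sash1 (0.80) and Mt2 (0.79).

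The other genes of the pathway were taken from a list of 64, of which 63 were in the files. In neutrophils, 2 of 30 with enough UMIs were higher in AAA_14 than in Sham and 0 lower. For AAA_7 over Sham 9 of 30 were higher and 1 lower, and for AAA_14 over AAA_7 2 of 35 were higher and 12 lower. Over all genes 8.31%, 19.3% and 18.1% were called in these comparisons. Their median for AAA_7 over Sham was 0.88, but -0.01 with the 6 genes at 0 UMIs in Sham set at their bounds, beside 0.04 over all genes.

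Alas1, which starts heme synthesis, was among the higher genes in both comparisons with Sham neutrophils. It was 76.4 CPM in AAA_14 (172 UMIs), 208 CPM in AAA_7 (261 UMIs) and 13.03 CPM in Sham (2 UMIs), giving log2 ratios of 2.23 (0.68 to 5.61) and 3.68 (2.13 to 7.05). Steap4, a metalloreductase, was 235 CPM in AAA_14 and 111 CPM in Sham neutrophils (1.05, 0.40 to 1.88). Nrf2 is a transcription factor that also acts on Hmox1 and both ferritin genes, and its part here was not tested. Of 5 other Nrf2 targets, 4 were higher in AAA_7 than in Sham neutrophils, and 5 of 5 were lower in AAA_14 than in AAA_7, beside the same 19.3% and 18.1%. Other groups of the list had fewer genes higher in AAA_7 than in Sham. These were 1 of 4 for heme synthesis, 0 of 4 for heme uptake and export and 2 of 4 for iron import. For storage it was 1 of 3, for regulation 1 of 6 and for mitochondrial iron 0 of 4. In T cells 4 of 5 Nrf2 targets were likewise higher in AAA_7 than in Sham, beside 26.0%. In neutrophils Txnrd1, thioredoxin reductase, was 125 CPM in AAA_14 and 402 CPM in AAA_7 (-1.68), and Srxn1, sulfiredoxin, 17.3 and 54.2 CPM (-1.64). Srxn1 had 0 UMIs in Sham neutrophils, so AAA_7 was at least 2.77-fold higher than Sham. Slc7a11, also 1 of the 5, is a leading gene of cluster 1, which held most AAA_7 neutrophils. Mafg, a partner of Nrf2, was 60.9 CPM in AAA_14 and 210 CPM in AAA_7 neutrophils (-1.79). Lactoferrin (Ltf) had 39 UMIs in AAA_7 neutrophils and 0 in Sham, at least 1.59-fold higher.

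In phagocytes 5 of 52 other pathway genes were higher in AAA_14 than in AAA_7 and 4 lower, where 8.47% of all genes were called, with a median of -0.09 beside 0.11 over all genes. Slc7a11, a cystine transporter, was 22.7 CPM in AAA_14 and 146 CPM in AAA_7 (-2.68, -2.88 to -2.49). Lcn2, which binds iron-loaded siderophores, was 46.0 and 13.3 CPM (1.79, 1.44 to 2.17). Alas2, the erythroid form of the enzyme, had 43 UMIs in AAA_14 phagocytes and 0 in AAA_7, at least 6.30-fold higher. Haemoglobin RNA in the same cells was 939 CPM in AAA_14 and 4.54 CPM in AAA_7, and its part in the Alas2 difference was not tested. In dendritic cells Lcn2 (-4.79), Cp, ceruloplasmin (-2.75), and Ltf (-2.70) were lower in AAA_14 than in AAA_7, 3 of the 11 called lower. Of the 50 tested 3 were higher, where 10.1% of all genes were called. Neutrophil markers in dendritic cells were 264 CPM in AAA_14 and 2203 CPM in AAA_7 (11 of 11 detected in each), and their part in these differences was not tested.

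In T cells 16 of 44 were called for AAA_14 over Sham and 12 of 40 for AAA_7 over Sham, each of them higher, where 23.7% and 26.0% of all genes were called. Uros, of heme synthesis (51 UMIs in AAA_14 and 3 in Sham, 2.41), the porphyrin exporter Abcg2 (30 and 1, 2.88) and Srxn1 (32 and 3, 1.75) led the AAA_14 set. Mafg (1.90), Txnrd1 (1.57) and the mitochondrial iron carrier Slc25a28 (1.55) led that of AAA_7. For AAA_14 over AAA_7, where 6.08% of all genes were called, 1 of 46 was higher, Ltf (1.41), and 4 were lower, with Nfe2l2, which encodes Nrf2, at -1.10. In B cells 4 were higher and 2 lower of 39 for AAA_14 over Sham, where 19.4% of all genes were called. The heme synthesis genes Alas1 (1.17) and Alad (1.12) were among the 4. For AAA_7 over Sham 3 of 35 were higher, Mafg (1.40) among them, where 17.0% of all genes were called. For AAA_14 over AAA_7 3 of 43 were higher and 6 lower, where 10.0% were called: the higher genes included Ltf (1.78) and Alas2, with 43 UMIs in AAA_14 and 0 in AAA_7. In NK cells 2 of 33 were higher in AAA_14 than in Sham, with Keap1, the repressor of Nrf2, at 1.44, where 13.8% were called. In the Camp-Ngp-Ltf cluster 1 of 28 was higher and 3 lower in AAA_14 than in Sham, where 7.46% of all genes were called. Slc7a11 was 164 CPM in AAA_14 and 567 CPM in Sham there (-1.79, -2.04 to -1.54), the heme exporter Flvcr1 19.5 and 41.7 CPM (-1.13), and Ppox, of heme synthesis, had 40 UMIs in AAA_14 and 0 in Sham.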

How the data were processed

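The deposited matrices give raw counts, each a UMI count of 1 gene in 1 barcode. Per the file headers, the authors made them with Cell Ranger 6.1.2, and the submitters' notes on processing add Seurat and mm10. The 9 genes and all gene lists were chosen with earlier results of these data known, and so were the markers. Barcodes with at least 200 genes and at most 10% mitochondrial UMIs were kept, and likely doublets were removed by Scrublet score at 0.8% per 1000 cells, since its own cut-off marked 0, 0 and 2 cells (224, 83 and 12 were removed from AAA_14, AAA_7 and Sham).

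Cells of all libraries were clustered together (scanpy 1.11.5, 2000 variable genes, 30 components, 15 neighbours, leidenalg 0.10.2, igraph 0.11.9, scikit-learn 1.9.0, numpy 2.4.6). Naming a cluster took at least 3 detected markers and a second best class that scored at most 0.5 of the best. These limits were set after the clusters were seen. The name was withheld if a rival class supplied more of the 10 leading genes, by marker list, than the best class did. For this reason the Camp-Ngp-Ltf cluster stayed unnamed, with 0 neutrophil markers and 1 marker from a rival class among its 10 leading genes. Raw UMI counts were summed by class or cluster and library, and only classes with at least 50 cells were compared. Intervals are exact at 95% (scipy 1.17.1): Poisson for sums, binomial for shares and conditional binomial for ratios. A ratio needs at least 10 UMIs over both libraries. A level at 0 was bounded with a floor of 3 counts per library, and for a share of all kept cells a count of 0 allows up to 0.0593%, 0.0954% and 0.245% in AAA_14, AAA_7 and Sham.

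All 9 members are named. Of the other pathway genes, the 3 with the largest called ratio and at least 30 UMIs in the higher library were named in each comparison, and for each member the 3 most alike genes among those with 50 CPM in at least 1 sum. A gene that this rule also names is not reported here. Positions are from GENCODE vM21 (GRCm38), where 32158 of 32285 gene identifiers matched. The calling step was run on simulated counts with known changes. TMM factors came from edgeR 4.0.16, and figures from matplotlib 3.10.9.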

Additional observations from a re-analysis of the deposited data

How the results depend on the processing

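No paired analysis was possible because each group is 1 library. The 28 calls made by named class were recomputed under 11 alternatives (14 of them with the 5% mitochondrial limit and 23 with at least 500 genes, where fewer classes kept 50 cells), and under 2 more that were chosen after seeing the data (leaving out cells with a haemoglobin UMI, or cells of other classes with at least 1% neutrophil-marker UMIs). TMM factors kept 27 of 28 calls, and thinning to 1000 UMIs kept 14. For AAA_14 against Sham, 5 of 36 member and class pairs were called, against 0 of 9 with a 5% mitochondrial limit, 10 of 45 with 20%, 0 after thinning and 8 without the top cell of each class. For AAA_7 against Sham, 10 of 36 were called, against 5 of 9 with 5%, 6 of 27 with at least 500 genes, 5 after thinning, 6 of 27 without haemoglobin cells and 4 of 27 without neutrophil-marker cells. For AAA_14 against AAA_7, 13 of 54 were called, against 8 of 36 with 5%, 8 of 54 with 20% and 8 of 45 without neutrophil-marker cells. In phagocytes 1 of 9 was called, against 0 with 5%, 0 with 20%, 2 after thinning (Hp and Slc40a1) and 0 with classes from each cell's own markers. A lower total of pairs means that fewer classes kept 50 cells. These totals count all pairs, also those without enough UMIs. The share of all genes called is not given under the alternatives, so these counts cannot be set against a background. Called ratios that changed sign were Hp for AAA_14 over AAA_7 with the 5% limit, in phagocytes (-0.08, against 1.24) and in dendritic cells (1.13, against -7.06), Tfrc in neutrophils for AAA_7 over Sham with 5 UMIs added (-0.11) and Slc48a1 in NK cells for AAA_14 over AAA_7 after thinning (0.66, against -1.44). Tfrc in dendritic cells for AAA_14 over AAA_7, not called at 0.10, was called at -1.42 with the 5% limit. Ratios within clusters were not recomputed. Blvrb in B cells for AAA_14 over Sham was 0.26 with at least 500 genes, 0.68 with the 20% limit and 0.77 after thinning. Fth1 in neutrophils was 0.99 for AAA_7 over Sham after thinning and -0.99 for AAA_14 over AAA_7 with at least 500 genes. In neutrophils Hmox1 and Slc40a1 were called in the same direction for AAA_7 over Sham and for AAA_14 over AAA_7 in each alternative that left 50 cells in both libraries. The causes of these changes were not tested. In Sham the number of cells limits precision, with 55 neutrophils.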
